A study of Mus musculus with 4 samples.

Results

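Gene expression was compared between Brg1 conditional knockout (cKO) and wild-type mouse cortical neurons that had both been depolarized with 50 mM KCl for 6 h. The comparison set the cKO KCl library against the wild-type KCl library, 1 library each. Genes that reached 1 FPKM (a level in which fragments are divided by transcript length and sequencing depth) in at least 1 of the 4 libraries of the study were kept, which left 13248 of 22552 genes. The 459 retained X-linked and 4 retained Y-linked genes were set aside, so the comparison covered 12785 genes. Genes that matched no chromosome stayed in, among them the X-linked Odz1.

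The study crossed genotype with depolarization in primary cultures. Cortical neurons were prepared from embryos at E16.5, and the sodium channel blocker TTX (1 µM) and the NMDA receptor blocker APV (100 µM) were given on day 5 in vitro to all 4 cultures, before KCl on day 6. The 4 libraries, 1 per group, were wild type at basal KCl, wild type with KCl, Brg1-cko at basal KCl and Brg1-cko with KCl. The knockout carried floxed Brg1 alleles and BAF53bCre, a recombinase driven by a gene of post-mitotic neurons. Glia and other non-neuronal cells of the culture lie outside the cells in which that driver is known to act. With 1 library per group there was no spread between cultures, and no test or p-value is given. The words higher and lower refer to these 2 libraries. Intervals in parentheses after a fold are 95% counting intervals on approximated fragments, which cover counting error only.

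Brg1, encoded by Smarca4, is 1 of the alternative ATPases of the BAF (SWI/SNF) complex, which uses ATP to move or evict nucleosomes at enhancers and promoters. In neurons the complex takes up neuron-specific subunits, among them the BAF53b subunit whose gene drives the Cre. Depolarization with KCl opens L-type calcium channels. Calcium signalling then switches on immediate early transcription factors such as Fos and Npas4, and later a set of effector genes for secreted peptides, growth factors, synaptic proteins and channels.

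The approximated depth was 21300000 to 22600000 fragments per library, so that 1 FPKM on a transcript of 2 kb stood for 42.6 to 45.2 fragments. Genotype and sex coincided in all 4 libraries: Xist, which coats the silenced X chromosome, was at 83.3 and 78.1 FPKM in wild type (basal, KCl) against 0.141 and 0.287 in the cKO, and the Y-linked gene Eif2s3y was at 0.052 and 0 against 32.9 and 39.0. Genotype and sex therefore cannot be told apart in any value given here. In bulk cultures fewer cells of a type and less RNA per cell cannot be told apart either. Neuronal transcripts were present in every library, with Syt1, the calcium sensor of vesicle release, at 107.8 to 152 FPKM and the nuclear marker of neurons Rbfox3 at 33.3 to 38.1 FPKM. Astrocyte and radial glia genes summed to 4469 to 7217 FPKM, so the cultures held glial RNA too. A low value in the table need not be a low transcript level: Gapdh, a glycolytic gene of all cells, was listed at 0.0724 to 0.255 FPKM, the chaperone gene Ppia at 0.0585 to 0.237 and the sterol synthesis gene Hmgcs1 at 0 in all 4 libraries, and 14 of 81 cytosolic ribosomal protein genes did not reach 1 FPKM. The labels do not say whether the libraries came from separate animals or litters.

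The 2 promoter sequences shown first belong to Pcsk1 and Scg2, a prohormone convertase and a granin of dense-core vesicles, which were among the KCl-induced genes with lower values in the depolarized cKO. They are shown because each holds the full cAMP response element TGACGTCA, the binding sequence of CREB, in the 250 bases before its RefSeq start (GRCm38.p6). The capitals mark the element, whose last base lies 60 bases before the start in Scg2 (chr1:79440027-79440276, minus strand) and 70 bases before it in Pcsk1 (chr13:75089607-75089856, plus strand).
Scg2: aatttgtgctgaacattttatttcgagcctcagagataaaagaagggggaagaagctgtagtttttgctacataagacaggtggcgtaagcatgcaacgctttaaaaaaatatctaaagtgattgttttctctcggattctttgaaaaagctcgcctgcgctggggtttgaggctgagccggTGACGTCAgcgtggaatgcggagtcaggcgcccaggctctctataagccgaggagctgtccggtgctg
Pcsk1: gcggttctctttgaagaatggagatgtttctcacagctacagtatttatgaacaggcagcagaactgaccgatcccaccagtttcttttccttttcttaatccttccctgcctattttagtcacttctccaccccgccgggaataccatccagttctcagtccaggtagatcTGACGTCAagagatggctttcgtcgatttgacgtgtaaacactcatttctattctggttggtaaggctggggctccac

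Smarca4 itself stood at 34.0 FPKM (basal) and 28.5 FPKM (KCl) in wild type, and at 10.5 and 10.4 FPKM in the cKO. After KCl it was 2.75-fold lower (2.58 to 2.92) in the cKO than in wild type, and its log2 ratio, taken like all log2 ratios here after adding 1 FPKM to both values, was −1.37. Both cKO libraries lay below both wild-type libraries, and the cKO KCl value was 36.4% of the wild-type KCl value. Of the 26 BAF subunits tested, Smarca4 was the only member past 2-fold, and the list's median log2 ratio was 0.04 (below 0 when the libraries were rescaled by the median ratio or to the ribosomal proteins). The alternative ATPase Smarca2 was at 36.2 (wild type) and 38.4 FPKM (cKO) after KCl. The neuronal subunit Actl6b, which encodes BAF53b, was at 32.8 (wild type) and 32.9 FPKM (cKO), and the scaffold subunit Smarcc2 at 61.4 (wild type) and 62.8 FPKM (cKO).

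After depolarization 235 genes (1.84%) were at least 2-fold higher in the cKO and 119 (0.931%) at least 2-fold lower, while 12431 (97.2%) lay within 2-fold. The shares of 1.84% and 0.931% are the reference for every list count below. Of all genes 55.3% had a log2 ratio above 0 and 44.5% one below 0. The median log2 ratio over all genes was 0.03, with the 5th and 95th percentiles at −0.49 and 0.63. Leaving out unnamed genes and small RNAs, 200 were higher and 63 lower. The counting interval excluded a fold of 1 for 261 of these 263. That follows largely from choosing the genes by the same 2 values, so it adds no support to the calls. The remaining 2, Pisd-ps1 and Dbpht2, had no transcript length and so no interval. Since 2-fold was counted after adding 1 FPKM, a gene could fall short of it with a plain FPKM ratio above 2. At low level the gap could be wide: Rgs1, at 1.18 (wild type) and 2.91 FPKM (cKO), had a plain ratio of 2.46. Genes just short of 2-fold after adding 1 FPKM included Tyrobp, a microglial signalling adaptor (54.5 (wild type) and 110.0 FPKM (cKO)), and Tnr, an extracellular matrix gene (22.7 (wild type) and 10.9 FPKM (cKO)). Just past it lay the complement gene C1qc (41.8 (wild type) and 84.9 FPKM (cKO)) and the neuronal transcription factor Neurod2 (78.4 (wild type) and 38.3 FPKM (cKO)).

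The higher and lower ends of the ranking held different kinds of genes. Among the 20 highest named genes were collagens and other matrix genes, mural cell genes and macrophage genes, led by Ccl2, Pcolce, Vtn and Spp1. Among the 20 lowest were genes of myelinating oligodendrocytes, led by Mbp, Enpp6, Mag and Cldn11, and neuronal genes such as Kcna1, Rtn4rl2, Nrgn and Egr3. Most of the named genes differed in the same direction at basal KCl: 195 of the 200 higher genes had a log2 ratio above 0 there and 57 of the 63 lower genes had one below 0, and 67 and 22 were past 2-fold. For reference, 52.3% of all genes were above 0 and 47.2% below 0 at basal KCl, and the share of all genes past 2-fold at basal KCl was 0.907% in the higher and 0.548% in the lower direction. Over all genes including small RNAs, the 71 genes higher in both conditions made up 30.2% of the KCl list and 61.2% of the basal list, and the 31 lower in both made up 26.1% and 44.3%. The 2 genotype comparisons share no library, but sex followed genotype in both.

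**Figure D1:**
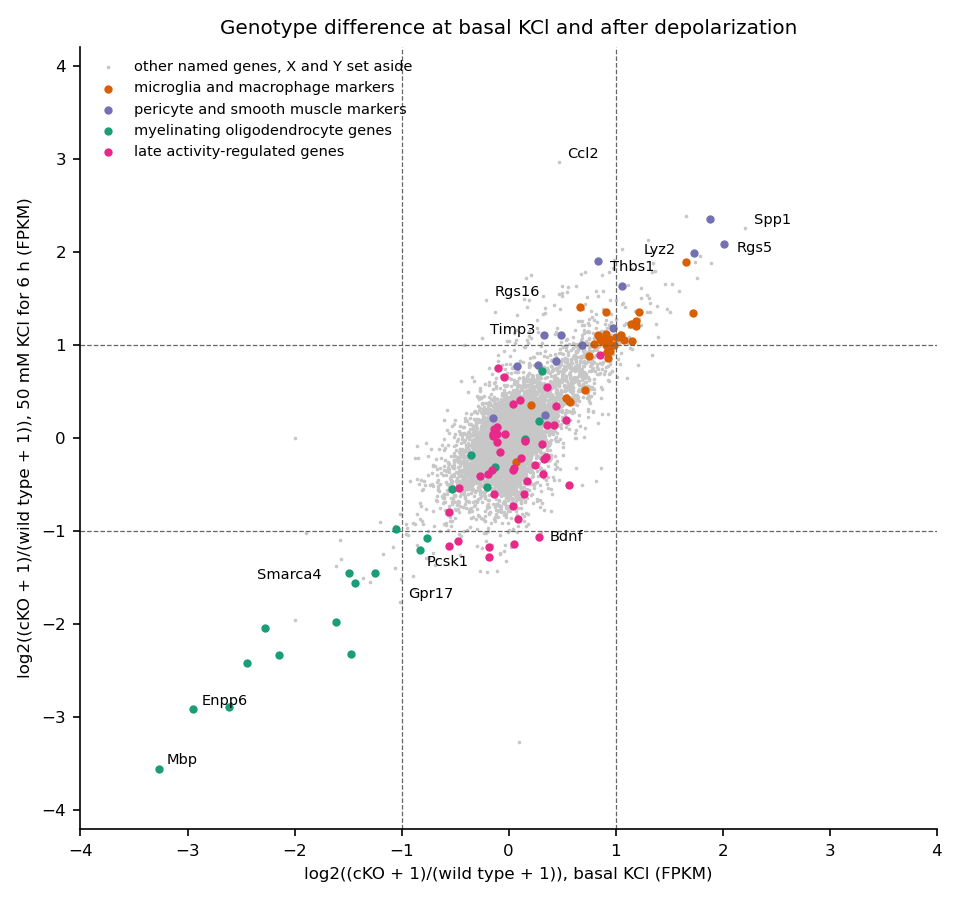
Log2 ratio of cKO over wild type at basal KCl (horizontal axis) and after 50 mM KCl for 6 h (vertical axis), each after adding 1 FPKM, for named genes with X- and Y-linked genes set aside; coloured points are 4 gene lists and dashed lines mark 2-fold. Most myelinating oligodendrocyte genes lie low on both axes, down to Mbp at −3.55, most microglial and mural markers lie above 0 on both, and the late activity-regulated genes spread from Pcsk1 (−1.28) to Igf1 (0.90) on the vertical axis.

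Late activity-regulated genes encode the secreted and signalling effectors of the depolarization response. Of 44 tested, 6 were lower by 2-fold or more in the depolarized cKO (0.931% of all genes were). No member was higher by that much (1.84% of all genes were), and 16 had a log2 ratio above 0 (55.3% of all genes did). Their median log2 ratio was −0.22 after KCl and 0.04 at basal KCl, against 0.03 and 0.01 for all genes. Rescaling to the presynaptic genes, with 0.22 as the new all-gene median, left this list at −0.05. The 6 genes were Pcsk1, Scg2, Gpr22, Adcyap1, Stc2 and Bdnf.

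Pcsk1, which cleaves prohormones into active peptides, stood at 0.933 FPKM (basal) and 49.3 FPKM (KCl) in wild type, and at 0.704 and 19.7 FPKM in the cKO. It was 2.51-fold lower (2.39 to 2.63) in the cKO after KCl, and both KCl libraries were far above both basal libraries. Scg2, the secretogranin gene, stood at 29.3 FPKM (basal) and 74.1 FPKM (KCl) in wild type, and at 25.8 and 32.3 FPKM in the cKO, which made it 2.29-fold lower (2.16 to 2.43) after KCl. Its cKO KCl value lay close to the 2 basal values, whereas the wild-type KCl value stood apart. Adcyap1, the precursor of the neuropeptide PACAP, stood at 2.89 FPKM (basal) and 9.91 FPKM (KCl) in wild type, and at 3.03 and 3.95 FPKM in the cKO. Bdnf, the activity-regulated neurotrophin, stood at 0.734 FPKM (basal) and 27.0 FPKM (KCl) in wild type, and at 1.12 and 12.4 FPKM in the cKO and was 2.18-fold lower (2.03 to 2.34). For Adcyap1 and Bdnf the cKO value was slightly the higher one at basal KCl and the lower one after KCl. Gpr22, an orphan receptor, stood at 5.46 FPKM (basal) and 6.38 FPKM (KCl) in wild type, and at 3.40 and 2.29 FPKM in the cKO, and Stc2, the secreted glycoprotein stanniocalcin, at 4.27 FPKM (basal) and 6.37 FPKM (KCl) in wild type, and at 2.79 and 2.41 FPKM in the cKO. Both were already lower in the cKO at basal KCl, with log2 ratios of −0.56 and −0.48 there, against −0.18 for Pcsk1 and −0.18 for Scg2.

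Other members were less different or did not differ in that direction. Homer1, whose short activity-induced form uncouples postsynaptic scaffolds, stood at 133 (wild type) and 79.8 FPKM (cKO) after KCl. Vgf, another dense-core vesicle gene, stood at 66.2 (wild type) and 49.7 FPKM (cKO), and the neuronal pentraxin Nptx2 at 5.39 (wild type) and 3.20 FPKM (cKO). Inhba, an activin subunit, was at 14.3 (wild type) and 14.6 FPKM (cKO) and Tnfrsf12a, a TNF family receptor, at 92.1 (wild type) and 94.8 FPKM (cKO). Igf1, which neurons and microglia both make, was at 18.6 (wild type) and 35.5 FPKM (cKO), the largest ratio toward the cKO among the members tested. The list therefore spanned log2 ratios from −1.28 to 0.90.

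Immediate early genes, the transcription factors and signalling genes switched on without new protein synthesis, showed a mixed pattern. Of 36 tested, 4 were past 2-fold on the lower side (Egr3, Nfil3, Egr4 and Fosl2) and 1 was higher (Ier3). The shares over all genes were 0.931% lower and 1.84% higher. The median was −0.26 after KCl and 0.01 at basal KCl, and the former stayed below 0 under every rescaling run (−0.35 to −0.05). Nfil3, a bZIP repressor, stood at 17.7 FPKM (basal) and 112 FPKM (KCl) in wild type, and at 16.7 and 46.4 FPKM in the cKO and was 2.41-fold lower (2.29 to 2.54). Fosl2, an AP-1 subunit, stood at 4.37 FPKM (basal) and 59.8 FPKM (KCl) in wild type, and at 3.58 and 29.1 FPKM in the cKO and was 2.06-fold lower (1.98 to 2.13). Egr3 stood at 2.97 FPKM (basal) and 7.03 FPKM (KCl) in wild type, and at 1.46 and 2.13 FPKM in the cKO, and Egr4 at 0.055 FPKM (basal) and 6.83 FPKM (KCl) in wild type, and at 0 and 2.33 FPKM in the cKO. In all 4 of these genes KCl values exceeded basal values in both genotypes, with the wild-type KCl library the highest.

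The best known members lay within 2-fold. Fos was at 203 (wild type) and 224 FPKM (cKO), Fosb at 104 (wild type) and 86.3 FPKM (cKO) and Npas4, a neuron-specific bHLH factor, at 75.7 (wild type) and 58.4 FPKM (cKO). The orphan nuclear receptors Nr4a1 (162 (wild type) and 88.9 FPKM (cKO)) and Nr4a3 (159.9 (wild type) and 94.4 FPKM (cKO)) had lower values in the cKO. Egr1 was in the other direction, at 28.8 (wild type) and 48.8 FPKM (cKO), as were Ier5 (36.8 (wild type) and 63.3 FPKM (cKO)) and Gadd45b (22.98 (wild type) and 32.9 FPKM (cKO)). Ier3, an inducible survival gene, stood at 2.63 FPKM (basal) and 10.05 FPKM (KCl) in wild type, and at 3.59 and 28.0 FPKM in the cKO and was 2.79-fold higher (2.41 to 3.25). Of 13 Krüppel-like factors, 2 were past 2-fold on the lower side and 0 on the higher (0.931% and 1.84% of all genes), with a median of −0.28. Klf9 stood at 23.9 FPKM (basal) and 67.5 FPKM (KCl) in wild type, and at 19.3 and 29.7 FPKM in the cKO, and Klf5 at 5.85 FPKM (basal) and 17.1 FPKM (KCl) in wild type, and at 7.46 and 7.97 FPKM in the cKO.

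Synaptic adhesion genes, which join pre- and postsynaptic membranes, had a median log2 ratio of −0.33 after KCl and −0.06 at basal KCl, with 32 of 35 members below 0 after KCl (44.5% of all genes were) and 2 of 35 at least 2-fold lower. Those 2 were leucine-rich repeat proteins of excitatory postsynapses. Lrrtm1 stood at 40.4 FPKM (basal) and 75.7 FPKM (KCl) in wild type, and at 39.7 and 29.7 FPKM in the cKO and was 2.55-fold lower (2.41 to 2.70) after KCl. Lrrtm2 stood at 19.1 FPKM (basal) and 24.3 FPKM (KCl) in wild type, and at 16.4 and 11.5 FPKM in the cKO. In both genes the KCl value was above the basal value in wild type and below it in the cKO. The postsynaptic neuroligin Nlgn1 was at 17.8 (wild type) and 13.2 FPKM (cKO). Under rescaling to the presynaptic genes the adhesion list stood at −0.12, against 0.22 for all genes.

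Transcription factors of excitatory cortical neurons had 28 of 30 members below 0 after KCl, against 44.5% of all genes. Their median was −0.26, against 0.02 at basal KCl, and 1 member was past 2-fold on the lower side (0.931% of all genes were). That member was Neurod2, a bHLH factor of cortical projection neurons, which stood at 53.4 FPKM (basal) and 78.4 FPKM (KCl) in wild type, and at 56.6 and 38.3 FPKM in the cKO. Its wild-type value was higher with KCl than at basal and its cKO value was lower. The POU factors Pou3f1 (35.7 (wild type) and 18.8 FPKM (cKO)) and Pou3f2 (20.8 (wild type) and 11.2 FPKM (cKO)) came next. The deep-layer gene Fezf2 was at 8.39 (wild type) and 7.77 FPKM (cKO).

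Among 19 excitatory neuron effectors, 2 were past 2-fold on the lower side and 0 on the higher. Their median was −0.22 after KCl and already −0.18 at basal KCl, with 16 of 19 below 0 in each condition. Rtn4rl2, a Nogo receptor homologue, stood at 31.9 FPKM (basal) and 40.7 FPKM (KCl) in wild type, and at 29.6 and 14.5 FPKM in the cKO, with close values at basal KCl. Nrgn, which binds calmodulin in dendritic spines, stood at 171 FPKM (basal) and 154 FPKM (KCl) in wild type, and at 81.4 and 58.0 FPKM in the cKO and was lower in the cKO in both conditions. Potassium channels, which set firing and resting potential, had 3 of 53 members lower (0.931% of all genes were), 1 higher (1.84%) and a median of −0.19. Kcna1, an axonal Kv1 subunit, stood at 2.63 FPKM (basal) and 7.79 FPKM (KCl) in wild type, and at 2.16 and 2.24 FPKM in the cKO and was 3.48-fold lower (2.97 to 4.09). The inward rectifier Kcnj4 stood at 14.4 FPKM (basal) and 19.3 FPKM (KCl) in wild type, and at 10.2 and 7.50 FPKM in the cKO, and Kcnf1, a modifier subunit, at 14.9 FPKM (basal) and 19.6 FPKM (KCl) in wild type, and at 12.7 and 8.59 FPKM in the cKO. The 1 higher member was Kcnj8 (0.378 (wild type) and 1.97 FPKM (cKO)), an inward rectifier subunit that also marks pericytes. Presynaptic genes had no member past 2-fold among 37 (2.77% of all genes were), with a median of −0.22, as they had −0.15 at basal KCl. Their most different member above 100 FPKM was the SNARE gene Snap25 (141 (wild type) and 84.6 FPKM (cKO)).

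**Figure D2:**
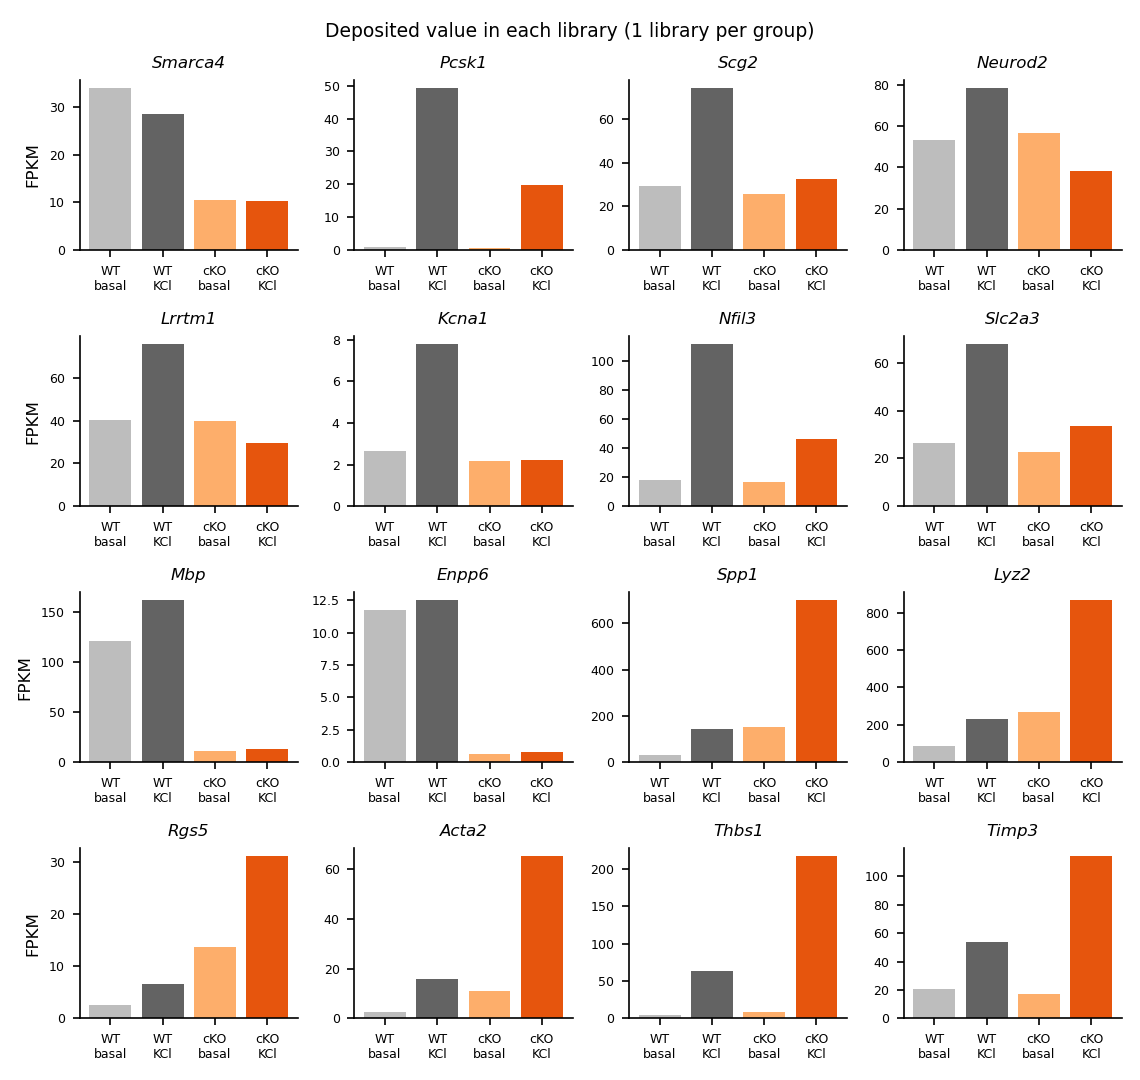
FPKM in each of the 4 libraries for 16 genes, with grey bars for wild type and orange bars for cKO, light for basal KCl and dark for KCl; each bar is 1 library and each axis starts at 0. Pcsk1, Scg2, Lrrtm1, Kcna1, Nfil3 and Slc2a3 have their tallest bar in the wild-type KCl library, Spp1, Lyz2, Rgs5, Acta2, Thbs1 and Timp3 in the cKO KCl library, and Mbp and Enpp6 in the wild-type pair.

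A small set of genes differed between genotypes after KCl and hardly at basal KCl. Among named genes that reached 5 FPKM and passed 2-fold after KCl, 51 were lower and 147 higher in the depolarized cKO. A basal log2 ratio between −0.25 and 0.25 was found for 25 of them, 18 lower and 7 higher. Of all 12785 genes, 11877 lay between −0.5 and 0.5 at basal KCl, and the share within 0.25 was not counted. Besides Pcsk1, Scg2, Nfil3, Egr4, Fosl2, Adcyap1, Kcna1, Kcnf1, Rtn4rl2, Lrrtm1, Lrrtm2 and Neurod2, the lower genes included several chosen here after their values were seen. Gpr19, an orphan receptor, stood at 16.477 FPKM (basal) and 53.6 FPKM (KCl) in wild type, and at 16.01 and 22.6 FPKM in the cKO. Siah2, a ubiquitin ligase, stood at 10.5 FPKM (basal) and 33.4 FPKM (KCl) in wild type, and at 10.7 and 14.3 FPKM in the cKO. Rnf217, another RING finger gene, stood at 9.76 FPKM (basal) and 29.5 FPKM (KCl) in wild type, and at 8.67 and 12.7 FPKM in the cKO. Gpr35 and Gpr135, both orphan receptors, were the others named. In Gpr19, Siah2 and Rnf217 the wild-type KCl library was the highest and the cKO KCl library came second. The pseudogene Pisd-ps1 (8.65 (wild type) and 0.0042 FPKM (cKO)) shares sequence with its parent gene, so its value is uncertain.

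The 7 higher genes of that set were Rgs16, S100a6, Olfml2b, Vgll3, Tns1, Mylip and Myo1c. Rgs16, a GTPase activator that dampens G protein signalling, stood at 1.91 FPKM (basal) and 6.44 FPKM (KCl) in wild type, and at 1.51 and 19.8 FPKM in the cKO and was 3.07-fold higher (2.71 to 3.49). S100a6, a calcium-binding protein, stood at 7.96 FPKM (basal) and 15.99 FPKM (KCl) in wild type, and at 7.18 and 42.4 FPKM in the cKO. Olfml2b, a secreted olfactomedin-like gene, stood at 2.55 FPKM (basal) and 3.13 FPKM (KCl) in wild type, and at 2.93 and 10.7 FPKM in the cKO. In each of these the cKO KCl library was alone at the top. Timp3, which inhibits matrix metalloproteinases, stood at 20.4 FPKM (basal) and 53.6 FPKM (KCl) in wild type, and at 17.0 and 114 FPKM in the cKO and was 2.13-fold higher (2.06 to 2.20), with a slightly lower cKO value at basal KCl.

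Genes of myelinating oligodendrocytes held the largest differences in the lower direction. Of 21 tested, 13 were past 2-fold on the lower side and 0 on the higher, with medians of −1.44 after KCl and −1.25 at basal KCl. Mbp, the myelin basic protein gene, stood at 121 FPKM (basal) and 161 FPKM (KCl) in wild type, and at 11.6 and 12.9 FPKM in the cKO and was 12.5-fold lower (11.6 to 13.6). Enpp6, a choline phosphodiesterase of newly formed oligodendrocytes, stood at 11.7 FPKM (basal) and 12.5 FPKM (KCl) in wild type, and at 0.653 and 0.790 FPKM in the cKO and was 15.8-fold lower (12.7 to 19.8). Mag, a myelin-associated glycoprotein, stood at 7.29 FPKM (basal) and 10.2 FPKM (KCl) in wild type, and at 0.355 and 0.512 FPKM in the cKO, and Cldn11, a myelin tight junction gene, at 16.501 FPKM (basal) and 23.3 FPKM (KCl) in wild type, and at 2.22 and 3.55 FPKM in the cKO. The 2 wild-type libraries were high and the 2 cKO libraries low in each. The summed level of the list went from 509 and 608 FPKM in wild type to 173.8 and 219.8 in the cKO. Members within 2-fold included Sirt2 (135 (wild type) and 68.0 FPKM (cKO)), Car2 (28.4 (wild type) and 28.1 FPKM (cKO)) and Galc (16.8 (wild type) and 19.3 FPKM (cKO)).

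Progenitors of the lineage were less different: 2 of 18 genes were past 2-fold, both lower, and the median was −0.37. Gpr17, a receptor of cells committed to differentiate, stood at 73.6 FPKM (basal) and 38.8 FPKM (KCl) in wild type, and at 35.9 and 10.8 FPKM in the cKO and was 3.61-fold lower (3.39 to 3.84). Nkx2-2, a transcription factor of the same stage, stood at 8.62 FPKM (basal) and 11.9 FPKM (KCl) in wild type, and at 2.91 and 3.43 FPKM in the cKO. The lineage factor Olig2 was at 73.7 (wild type) and 61.4 FPKM (cKO) and the growth factor receptor Pdgfra, the classic progenitor marker, at 38.8 (wild type) and 25.8 FPKM (cKO). Astrocyte and radial glia genes had a median of −0.19. Rescaled to the presynaptic genes it was 0.02, against 0.22 for all genes. Past 2-fold on the lower side were 2 of 34 members. The 2 were S100b (11.8 (wild type) and 2.29 FPKM (cKO)), which oligodendrocytes also express, and Gpr37l1 (3.65 (wild type) and 0.625 FPKM (cKO)). The astrocyte filament gene Gfap was at 201 (wild type) and 200.5 FPKM (cKO).

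Microglial and macrophage genes had the largest share of higher members among the lists counted, with 21 of 33 at least 2-fold higher, none lower and medians of 1.05 after KCl and 0.92 at basal KCl. Their summed level was 664 and 941 FPKM in wild type (basal, KCl) and 1386 and 2331 FPKM in the cKO. Lyz2, a macrophage lysozyme, stood at 84.0 FPKM (basal) and 232 FPKM (KCl) in wild type, and at 267 and 865 FPKM in the cKO and was 3.72-fold higher (3.62 to 3.82). Its near-identical neighbour Lyz1 was at 0.618 (wild type) and 0.767 FPKM (cKO), and reads shared by the 2 genes could have been split between them. The receptor gene Csf1r, on which microglia depend, was at 26.1 (wild type) and 63.6 FPKM (cKO), and the complement gene C1qa at 34.4 (wild type) and 74.3 FPKM (cKO). The macrophage pore-forming gene Mpeg1 was at 81.2 (wild type) and 173 FPKM (cKO). The homeostatic receptor P2ry12 stood at 0.570 (wild type) and 1.06 FPKM (cKO), and the border macrophage marker Mrc1 at 0.676 (wild type) and 0.405 FPKM (cKO). The part of these cells in the other higher genes was not tested.

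Spp1, the secreted phosphoprotein osteopontin, which macrophages and mural cells can express, stood at 32.0 FPKM (basal) and 145 FPKM (KCl) in wild type, and at 152 and 699 FPKM in the cKO. It was 4.80-fold higher (4.65 to 4.96) after KCl and had the largest difference in FPKM among the 235 higher genes apart from Lyz2. The wild-type KCl value was close to the cKO basal value, and the cKO KCl value stood far above both. Apoe, a lipoprotein of astrocytes and microglia, was at 1856 (wild type) and 2646 FPKM (cKO).

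Of the Spp1 windows in RefSeq (GRCm38.p6), 1 of 2 holds GAGGAAGT, a sequence bound by the macrophage factor PU.1. The 250 bases before that start (chr5:104434861-104435110, plus strand) are shown with the match in capitals. The same letters were found in the windows of 12 higher genes, among them Ctss, C1qc, Foxf2 and Itga11. They were in 6.82% of the windows of higher genes and in 2.79% of all windows.
Spp1: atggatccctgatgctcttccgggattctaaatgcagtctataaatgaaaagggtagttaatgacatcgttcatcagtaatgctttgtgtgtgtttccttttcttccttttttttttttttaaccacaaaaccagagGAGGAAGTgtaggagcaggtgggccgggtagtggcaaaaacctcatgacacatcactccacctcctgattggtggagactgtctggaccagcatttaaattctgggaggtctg

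Pericyte and smooth muscle genes had 8 of 15 members at least 2-fold higher and none lower, with medians of 1.10 after KCl and 0.49 at basal KCl. The list summed to 33.3 and 80.4 FPKM in wild type and to 75.8 and 264 in the cKO. Rgs5, a pericyte marker, stood at 2.62 FPKM (basal) and 6.55 FPKM (KCl) in wild type, and at 13.6 and 31.0 FPKM in the cKO and was 4.74-fold higher (4.22 to 5.35). Acta2, smooth muscle actin, stood at 2.58 FPKM (basal) and 15.7 FPKM (KCl) in wild type, and at 10.9 and 65.1 FPKM in the cKO and was 4.15-fold higher (3.82 to 4.51). Pdgfrb, the pericyte growth factor receptor, stood at 4.26 FPKM (basal) and 4.79 FPKM (KCl) in wild type, and at 8.40 and 20.7 FPKM in the cKO, and Vtn, the adhesion protein vitronectin, at 1.75 FPKM (basal) and 3.20 FPKM (KCl) in wild type, and at 9.12 and 20.4 FPKM in the cKO. In Pdgfrb and Acta2 the cKO KCl library stood well above the other 3. The Notch receptor Notch3 was within 2-fold at 6.36 (wild type) and 7.51 FPKM (cKO), and Des, the muscle filament gene, was listed near 0 in both KCl libraries. Of 22 endothelial genes 14 were below the filter, among them Cldn5, listed at 0 in every library, and 2 of the 8 tested, Flt1 (1.76 (wild type) and 4.86 FPKM (cKO)) and Eng (2.41 (wild type) and 7.399 FPKM (cKO)), were higher. Fibroblast and meningeal genes had 3 of 14 higher after KCl and 5 of 14 higher at basal KCl, with medians of 0.84 and 0.65.

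Actin and contractile genes had 9 of 32 members higher and none lower, with medians of 0.56 after KCl and 0.21 at basal KCl. Many are targets of SRF and its actin-regulated cofactors, which bind the CArG box, a CC and GG pair around 6 A or T bases. Myl9, a regulatory light chain of smooth muscle myosin, stood at 4.30 FPKM (basal) and 9.58 FPKM (KCl) in wild type, and at 9.18 and 35.5 FPKM in the cKO and was 3.70-fold higher (3.21 to 4.30). Tagln, the actin-binding protein transgelin, stood at 3.48 FPKM (basal) and 22.3 FPKM (KCl) in wild type, and at 8.34 and 71.6 FPKM in the cKO and was 3.20-fold higher (2.95 to 3.48). Cnn2, a calponin, stood at 3.04 FPKM (basal) and 21.5 FPKM (KCl) in wild type, and at 7.26 and 48.1 FPKM in the cKO. All 3 had their highest value in the cKO KCl library. Actb, the general cytoplasmic actin, was at 1022 (wild type) and 1206 FPKM (cKO) and the factor gene Srf at 59.0 (wild type) and 49.2 FPKM (cKO).

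The Myl9 and Cnn2 promoters (RefSeq, GRCm38.p6, both plus strand, chr2:156775214-156775463 and chr10:79988350-79988599) are shown because each holds a CArG box, in capitals, in the 250 bases before the start. The box ends 151 bases before the start in Myl9 and 46 bases before it in Cnn2.
Myl9: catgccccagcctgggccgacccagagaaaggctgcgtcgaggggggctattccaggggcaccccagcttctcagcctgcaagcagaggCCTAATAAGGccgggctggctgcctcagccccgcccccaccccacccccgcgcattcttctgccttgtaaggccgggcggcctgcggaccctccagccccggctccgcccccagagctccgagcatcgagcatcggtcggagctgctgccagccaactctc
Cnn2: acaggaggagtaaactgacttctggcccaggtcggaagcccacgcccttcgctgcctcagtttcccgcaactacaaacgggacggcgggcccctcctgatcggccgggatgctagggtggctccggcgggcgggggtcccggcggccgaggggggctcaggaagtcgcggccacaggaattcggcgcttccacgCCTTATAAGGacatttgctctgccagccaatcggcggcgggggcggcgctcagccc

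RefSeq windows from 250 bases before to 50 bases after a start were found for 8909 of the 12785 genes, 11524 windows in all, of which 176 belonged to 142 higher genes and 69 to 48 lower genes. Each motif was sought on both strands. TGACGTCA was in 3.14% of all windows, in 4.35% of those of lower genes (Pcsk1, Pop4 and Scg2) and in 0.568% of those of higher genes (Flt1). Its core TGACG, which the full element contains, was in 30.3%, 33.3% and 19.3%. The AP-1 sequence TGANTCA was in 4.81% of all windows, 10.1% of lower and 6.25% of higher ones, and the lower genes that held it included Bdnf, Klf9 and Gpr35. A CArG box was in 1.28% of all windows, 3.98% of higher ones (Anxa5, Cnn2, Filip1l, Igf2, Mpeg1, Myadm and Myl9) and 1.45% of lower ones (Nkx2-2). GAGGAAGT was in 2.79% of all windows, 6.82% of higher and 1.45% of lower ones. The TEAD sequence GGAATG was in 12.1%, 14.8% and 15.9% of all, higher and lower windows, the bHLH sequence CAGATG in 11.4%, 19.3% and 20.3%, the sequence TTTCC, which lies within many NFAT sites, in 57.4%, 61.4% and 50.7%, and the GC box GGGCGG in 62.9%, 45.5% and 39.1%. These shares describe letters in the windows, and several of them rest on fewer than 5 genes.

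Extracellular matrix lists had more higher than lower members past 2-fold, to differing degrees. Of 23 proteoglycan and laminin genes 5 were higher (1.84% of all genes were) and none lower, with a median of 0.23 after KCl. Their summed level was 933 (wild type) and 872 FPKM (cKO) after KCl. Metalloproteinases and their inhibitors had 3 of 22 higher, 1 lower (0.931% of all genes were) and a median of 0.13. Of 27 collagens 11 were at least 2-fold higher and none lower, with medians of 0.93 after KCl and 0.56 at basal KCl. The basement membrane collagen Col4a1 stood at 10.3 FPKM (basal) and 21.6 FPKM (KCl) in wild type, and at 28.1 and 77.3 FPKM in the cKO and was 3.58-fold higher (3.44 to 3.73). Col3a1, a fibrillar collagen, stood at 6.25 FPKM (basal) and 12.3 FPKM (KCl) in wild type, and at 23.1 and 51.7 FPKM in the cKO, and Pcolce, which enhances procollagen cleavage, at 1.04 FPKM (basal) and 2.07 FPKM (KCl) in wild type, and at 5.41 and 15.1 FPKM in the cKO. The basement membrane linker Nid1 stood at 3.25 FPKM (basal) and 6.83 FPKM (KCl) in wild type, and at 13.6 and 29.4 FPKM in the cKO. For Col3a1, Nid1 and Pcolce the 2 cKO libraries were also the higher pair at basal KCl.

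Matricellular proteins, secreted regulators of cell contact with matrix, had 7 of 23 members higher and none lower, with medians of 0.62 after KCl and 0.18 at basal KCl. Thbs1, thrombospondin, stood at 3.93 FPKM (basal) and 63.7 FPKM (KCl) in wild type, and at 8.03 and 217 FPKM in the cKO and was 3.40-fold higher (3.32 to 3.49). Ctgf, a growth factor-binding matrix protein, stood at 2.46 FPKM (basal) and 62.5 FPKM (KCl) in wild type, and at 7.16 and 194 FPKM in the cKO and was 3.10-fold higher (2.98 to 3.22). Both genes were low in both basal libraries and high in both KCl libraries, highest in the cKO. Igfbp7, an insulin-like growth factor-binding protein of vessels, stood at 5.40 FPKM (basal) and 13.9 FPKM (KCl) in wild type, and at 14.8 and 64.0 FPKM in the cKO. Among 16 integrins, the receptors for matrix, 6 were higher and none lower (median 0.57), led by the leukocyte chain Itgb2 (2.25 (wild type) and 7.31 FPKM (cKO)), while the widely expressed Itgb1 was at 112 (wild type) and 147 FPKM (cKO).

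Of 19 S100a proteins, annexins and related genes, 6 were higher and 1 was lower (S100b), with a median of 0.57. S100a4, a marker of motile mesenchymal cells and macrophages, stood at 4.16 FPKM (basal) and 11.2 FPKM (KCl) in wild type, and at 12.1 and 47.9 FPKM in the cKO and was 4.29-fold higher (3.50 to 5.25). The galectin genes Lgals1 (24.99 (wild type) and 69.8 FPKM (cKO)) and Lgals3 (41.1 (wild type) and 101 FPKM (cKO)) were also higher. Anxa2, an annexin of the plasma membrane, was within 2-fold at 29.0 (wild type) and 48.4 FPKM (cKO).

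Ccl2, the monocyte-attracting chemokine, had the highest log2 ratio of the named genes, 2.97. It stood at 0.174 FPKM (basal) and 0.960 FPKM (KCl) in wild type, and at 0.630 and 14.3 FPKM in the cKO and was 14.9-fold higher (9.02 to 25.6), a wide interval since the wild-type value rests on few fragments. The cKO KCl library stood alone above 1 FPKM. Of 37 cytokine, chemokine and NF-kB genes, 9 were higher and none lower, with medians of 0.51 after KCl and 0.27 at basal KCl. The macrophage chemokines Ccl3 (6.70 (wild type) and 18.4 FPKM (cKO)) and Ccl4 (2.95 (wild type) and 8.24 FPKM (cKO)) and the interleukin receptor Il1r1 (1.25 (wild type) and 4.67 FPKM (cKO)) were among them, while the feedback inhibitor Nfkbia was at 25.3 (wild type) and 27.6 FPKM (cKO). Interferon-stimulated and MHC class I genes had 3 of 27 higher, none lower and a median of 0.42. The light chain B2m was at 64.9 (wild type) and 139.7 FPKM (cKO) and the antiviral membrane protein Ifitm3 at 8.07 (wild type) and 22.6 FPKM (cKO). Complement and lysosomal genes had 4 of 31 higher (1.84% of all genes were) and a median of 0.59, with the protease Ctsd at 503 (wild type) and 923 FPKM (cKO).

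Cell cycle and mitosis genes shifted together by less than 2-fold. Of 56 tested, 52 had a log2 ratio above 0 (55.3% of all genes did), with medians of 0.58 after KCl and 0.56 at basal KCl. Only 1, Cdca3 (4.19 (wild type) and 9.39 FPKM (cKO)), was at least 2-fold higher (1.84% of all genes were). The mitotic genes Ube2c (7.43 (wild type) and 14.9 FPKM (cKO)), Cenpa (5.30 (wild type) and 11.5 FPKM (cKO)) and Ccnb1 (2.59 (wild type) and 5.68 FPKM (cKO)) lay close to 2-fold after adding 1 FPKM. These are genes of dividing cells, which neurons are not, and their part in the other results was not tested.

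**Figure D3:**
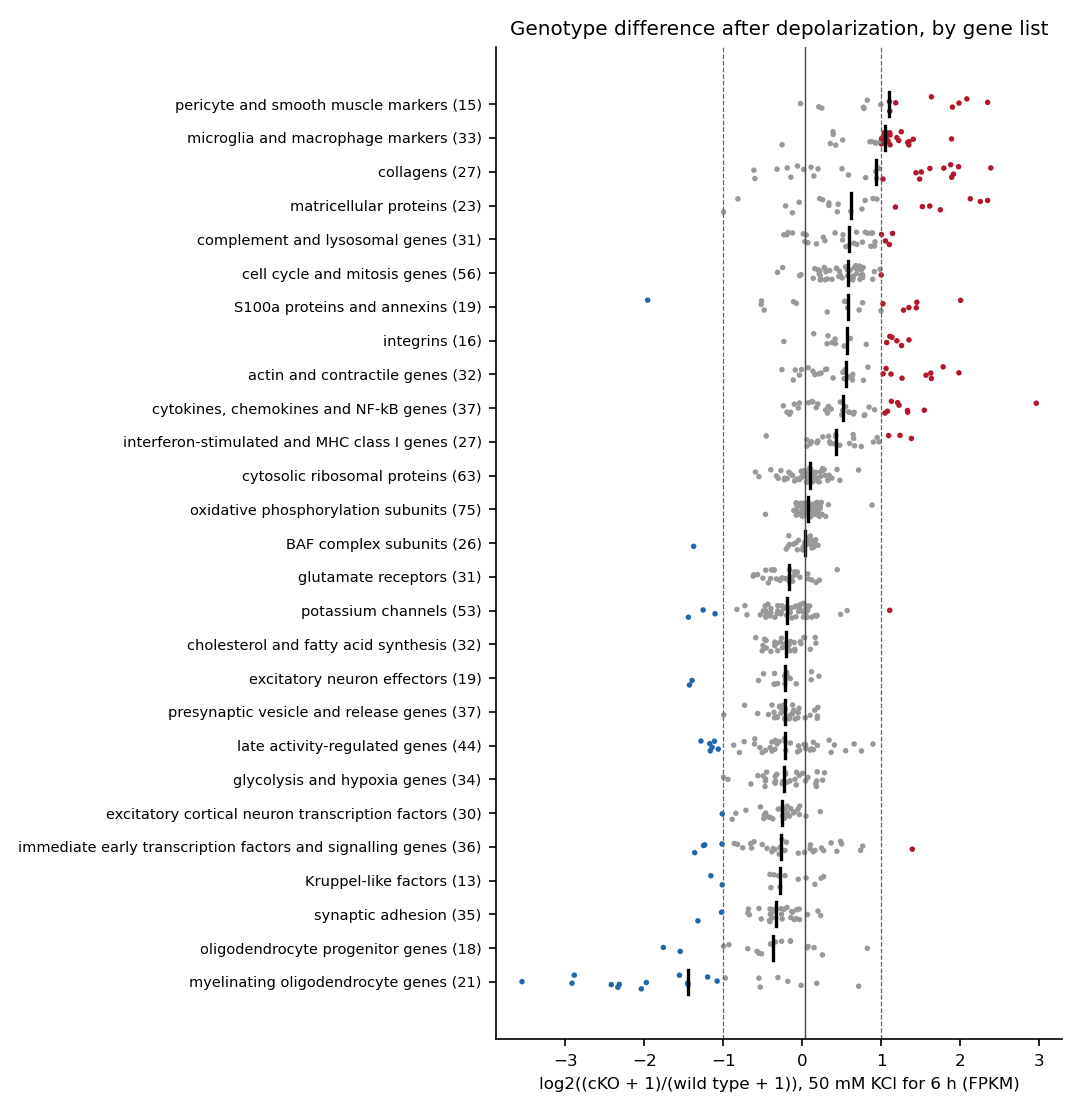
Log2 ratio of cKO over wild type after KCl (1 FPKM added) for the members of 27 gene lists, with the number tested in parentheses; each point is a gene, red at least 2-fold higher and blue at least 2-fold lower, black bars are list medians, the solid line is the median of all genes (0.03) and dashed lines mark 2-fold. List medians run from −1.44 in myelinating oligodendrocyte genes to 1.10 in pericyte and smooth muscle markers, with ribosomal, oxidative phosphorylation and BAF genes near 0.

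Ribosomal and oxidative phosphorylation genes lay near the median of all genes. The share of all genes past 2-fold was 2.77%, the reference for the lists below that had none. None of 63 cytosolic ribosomal protein genes and none of 75 oxidative phosphorylation genes was past 2-fold, and their medians were 0.09 and 0.07 (the latter −0.01 when rescaled to the ribosomal list). Cholesterol and fatty acid synthesis genes had none of 32 past 2-fold, 27 of 32 below 0 and a median of −0.20. Rescaled to the presynaptic genes their median was 0.01, against 0.22 for all genes. Glycolysis and hypoxia genes had none of 34 past 2-fold, 25 of 34 below 0 and medians of −0.23 after KCl and −0.26 at basal KCl. The neuronal glucose transporter Slc2a3 was just inside 2-fold in that group after adding 1 FPKM, with values 26.3 and 67.9 FPKM in wild type (basal, KCl) and 22.9 and 33.6 in the cKO. Protocadherins had none of 64 past 2-fold and 60 of 64 below 0, with a median of −0.15. Rescaled to the presynaptic genes their median was 0.03, against 0.22 for all genes.

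Small RNA genes made up much of what remained. Of 211 tested, 35 were at least 2-fold higher and 47 at least 2-fold lower (38.9% past 2-fold, against 2.16% of all other genes). In 31 of the higher genes the wild-type KCl value was 0 and in 37 of the lower genes the cKO KCl value was 0. Their median length was 81.5 bases, so 1 FPKM stands for few fragments. All 35 unnamed higher genes and 47 of the 56 unnamed lower genes were of this kind. No direction is read from them.

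**Figure D4:**
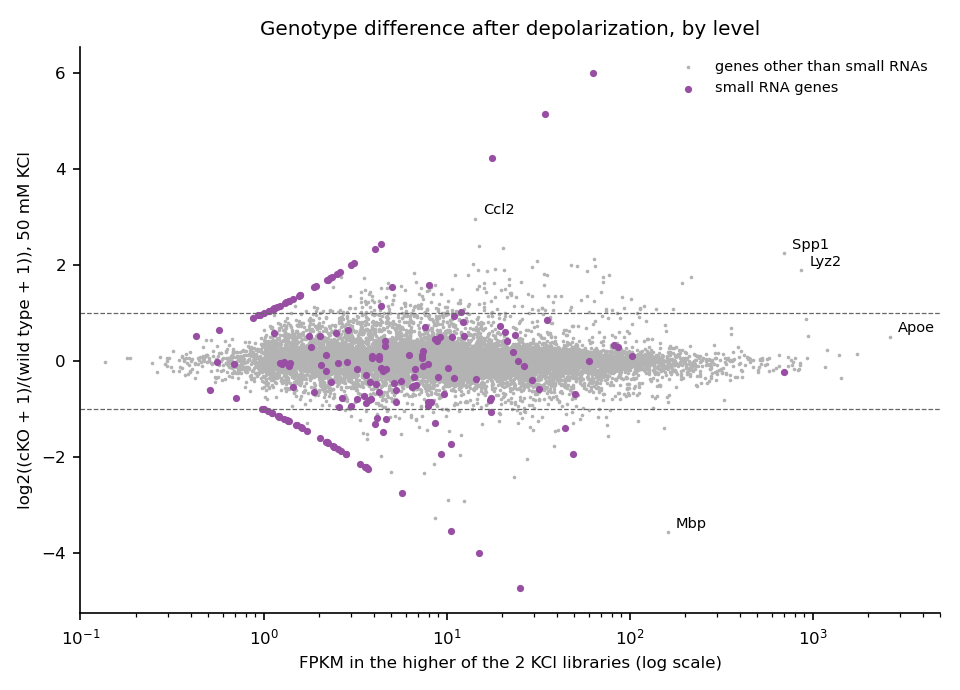
Log2 ratio of cKO over wild type after KCl (1 FPKM added) against FPKM in the higher of the 2 KCl libraries on a log scale, with small RNA genes in purple, all other genes in grey and dashed lines at 2-fold. Small RNAs past 2-fold form arcs at low level where 1 library is at 0, while Mbp, Spp1 and Lyz2 are past 2-fold at more than 100 FPKM.

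Calls were spread over level and chromosome. Among genes that reached 100 FPKM in the higher KCl library, 10 of 580 were higher and 3 lower, and among those at 5 to 20 FPKM 90 of 4831 were higher and 36 lower. Genes spanning at least 200 kb of genome had a median log2 ratio of −0.06, with 5 of 808 higher and 3 lower. On chromosome 9, which carries Smarca4, 8 of 745 genes were higher and 7 lower (2.01% past 2-fold), within the range of 1.96% to 3.76% over the autosomes.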

How the data were processed

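RNA sequencing of 4 libraries was analysed from 1 table of gene values deposited by the authors. The deposited values are FPKM, read from the values themselves because the labels name no unit. TopHat 1.3.2 and mm9 are named per the submitters' processing notes. For the program behind the gene values, its annotation and any filter, the method is not given in the sources used here. Every column was matched to its library by its description in the labels.

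Genes that reached 1 FPKM in any of the 4 libraries were kept, and log2((cKO + 1)/(wild type + 1)) was taken after KCl and, side by side, at basal KCl. With 1 library per group there was no test, and genes were counted at 2-fold. Chromosomes and transcript lengths came from GENCODE M21 and RefSeq (GRCm38), which differ from the authors' mm9, so no mm9 coordinates are given. Small RNA genes were recognized by their symbols. In all, 79 retained genes, among them the X-linked Odz1, matched no chromosome by symbol and were kept in the comparison. Depth was approximated from the smallest FPKM steps of genes with a single RefSeq-linked transcript longer than 2000 bases. It was sought only within a range set in advance, so it could not fall outside that range. Folds of single genes are ratios of the FPKM values, with 95% exact binomial intervals on approximated fragments, conditional on their sum. Comparisons of KCl with basal values share the KCl libraries with the genotype comparison, so only the values are given side by side.

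The members and the 61 gene lists were chosen with earlier results of these data known. Named genes were Smarca4, Spp1, Pcsk1, Scg2, Neurod2 and Timp3, the 20 highest and 20 lowest log2 ratios at 5 FPKM or more without unnamed genes and small RNAs, and in each list up to 5 members with the largest ratios at 2 FPKM or more and the most abundant member, 332 genes in all. Further list members, the genes set in parentheses for motifs and those close to 0 at basal KCl were named after their values were seen. Motifs were sought in RefSeq windows (GRCm38.p6). Recovery of known folds was tested on simulated data for genes at 5 FPKM or more, with only counting noise at the approximated depths. Variation between cultures was not simulated, so that test cannot speak to the calls made here. Alternatives were other pseudocounts, filters, fold sizes and scalings. Python 3.11.15, NumPy 2.4.6, pandas 2.3.3, SciPy 1.17.1 and matplotlib 3.10.9 were used.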

Additional observations from a re-analysis of the deposited data

Results flagged for a closer look

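Among the 332 named genes, 7 had genotype differences of opposite sign in the 2 conditions, each at least 0.25 on the log2 scale. In each case the difference rests on 1 library per group, the minimum of 0.25 was set after a stricter one gave no gene, and the contrast between conditions was not tested. Timp3 was slightly lower in the cKO at basal KCl (−0.25) and higher after KCl (1.08), a contrast of 1.33. Gadd45b, a stress-inducible gene, went from −0.38 to 0.50, a contrast of 0.87. Egfl7, a secreted vascular gene at 1.47 to 2.81 FPKM, went from −0.28 to 0.44, a contrast of 0.72. Bdnf went the other way, from 0.29 at basal KCl to −1.06 after KCl, a contrast of −1.35. Klf5 went from 0.30 to −1.01, a contrast of −1.32. The protocadherin Pcdh8 went from 0.26 to −0.67, a contrast of −0.94, and the histone gene Hist1h2bc from 0.29 to −0.50, a contrast of −0.79.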

How the results depend on the processing

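The 2-fold counts after KCl (235 higher, 119 lower) stayed within 1.5 times under no filter, equal column sums, the median ratio (214 and 132), the upper quartile, the ribosomal list (166 and 129), X- and Y-linked genes kept and, an alternative chosen after seeing the data, genes without a chromosome left out. They moved to 467 and 230 with a pseudocount of 0.1 FPKM, 67 and 34 with 5, and 153 and 77 with a filter of 5 FPKM in any library. A filter of 5 FPKM in a KCl library, also chosen after seeing the data, gave 153 and 69. Scaling to the presynaptic list gave 391 higher and 89 lower, and leaving out unnamed genes and small RNAs gave 63 lower. At 1.5-fold the counts were 709 and 426, and at 3-fold 49 and 37. Higher genes were 66.4% of those past 2-fold as deposited, 56.3% with the ribosomal and 81.5% with the presynaptic scaling, and 76.0% without unnamed genes and small RNAs. Smarca4 stayed between −1.12 (pseudocount 5) and −1.45, with −1.17 under the presynaptic scaling; the cause of each change was not tested beyond how the alternatives are built. Of the 111 named genes past 2-fold none changed sign under a pseudocount or scaling, and 98 to 111 stayed past 2-fold under the scalings and the pseudocount of 0.1, but 62 with a pseudocount of 5. Of 61 list medians 38 kept their sign under the 5 scalings and 23 did not. The median over all genes moved with the scaling too, to −0.05 with the ribosomal and 0.22 with the presynaptic list. No paired analysis was possible because each group has 1 library. Counting depth limits genes of low level and small RNAs.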

Other observations

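Several further gene groups had no member past 2-fold between the depolarized libraries. Over all genes 2.77% were past 2-fold, so groups of this size would hold few such members at that share. None of 31 glutamate receptor genes, 12 GABA-A receptor subunits, 19 postsynaptic scaffolds or 58 axon guidance genes was past 2-fold. Their medians were −0.16, −0.07, −0.12 and −0.02. Rescaled to the presynaptic genes the medians were 0.03, 0.12, 0.09 and 0.16, each below the 0.22 of all genes under that scaling. Below 0 were 25 of 31, 8 of 12, 15 of 19 and 30 of 58 of them, against 44.5% of all genes. Endoplasmic reticulum stress genes (median −0.01, none of 40) and tubulins (0.09, none of 18) had medians near 0. With the presynaptic scaling the former stood at 0.19, against 0.22 for all genes. Heat shock chaperones had 1 of 26 members higher, the small chaperone Hspb1, which stood at 0.153 FPKM (basal) and 1.36 FPKM (KCl) in wild type, and at 0.608 and 5.16 FPKM in the cKO, and a median of 0.04 (below 0 when rescaled by the median ratio or to the ribosomal proteins).

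Of 38 FGF, EGF, PDGF and VEGF ligands and receptors, 3 were at least 2-fold higher and none lower after KCl. The shares over all genes were 1.84% and 0.931%. The median of that list was −0.21, with 25 of 38 below 0 (44.5% of all genes were). Of 17 genes of the IGF axis, 2 were higher and none lower, with a median of 0.30. Angpt2, a regulator of vessel remodelling, stood at 0.204 FPKM (basal) and 2.24 FPKM (KCl) in wild type, and at 1.22 and 8.65 FPKM in the cKO. It was 3.87-fold higher (3.27 to 4.604) after KCl. Igf2, a growth factor of meninges and vessels, stood at 5.16 FPKM (basal) and 7.43 FPKM (KCl) in wild type, and at 16.8 and 25.5 FPKM in the cKO. The iron uptake receptor Tfrc was in the other direction but within 2-fold, at 79.8 (wild type) and 45.6 FPKM (cKO). The T-type calcium channel gene Cacna1g, at 11.8 (wild type) and 5.23 FPKM (cKO), was 2.25-fold lower (2.08 to 2.43).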
